A study of Homo sapiens with 6 samples.

Results

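The 44 genes described here belong to the enzyme families that add methyl groups to histones or take them off, leaving out the methyltransferases of the Polycomb complexes. They were taken as a fixed list of symbols, 30 methyltransferases and 14 demethylases, and all 44 were found among the 62700 genes of the counts table. All 44 passed the filter on low counts, which kept 20250 genes in all, and each had at least 276 reads in every library. The list was drawn up by enzyme family, with earlier results of these data known.

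RNA was sequenced from 6 cultures of cells named MKN-45 in the labels, a long-established line from a human gastric cancer. The 3 control libraries came from cells given a negative-control RNA and the other 3 from cells labelled NNMT knockdown, all harvested 48 h after transfection. The labels name the transfected RNA as shRNA in some fields and as siRNA in the treatment protocol, and the design text calls the controls untouched. The labels call the 3 cultures of each condition independent biological replicates. The genotype field repeats the transfection (a negative-control shRNA or NNMT knockdown), and no other allele, drug or agent is given for either group.

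Histone methyltransferases ("writers") place methyl groups on lysine or arginine residues of histone tails, and demethylases ("erasers") remove them. Methylation of lysine 4 of histone H3 (H3K4) marks active promoters and enhancers, and that of H3K36 and H3K79 marks transcribed gene bodies. Methylation of H3K9 and trimethylation of H4K20 mark silent or compacted chromatin. The writers take their methyl group from S-adenosylmethionine, the same donor that the NNMT enzyme uses to methylate nicotinamide. The erasers of the amine oxidase type use a flavin cofactor, while those of the Jumonji C (JmjC) type use iron and alpha-ketoglutarate. Many of these genes are broadly expressed, and several are often mutated in carcinomas, among them KMT2C, KMT2D and KDM6A.

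The promoters of these genes were compared with those of all genes, as a feature the list did not use. The RefSeq promoter table (GRCh38.p14, 250 bases before to 50 after a start) held 59 windows for 41 of the 44 genes. SETD1B, NSD3 and DOT1L had no entry. Of the 59 windows, 84.7% had a GC content above 50% and an observed to expected CpG ratio above 0.6, against 68.7% of the 18194 windows of tested genes and 46.8% of all 35116 windows. The GC box, GGGCGG on either strand, was in 72.9% of the 59 windows, 62.7% of those of tested genes and 45% of all. The TATA box letters, TATAAA on either strand, were in 0 of the 59, against 7.09% and 11.5%. The ETS core, CCGGAAG on either strand, was in 8.47% of the 59, against 15.3% of those of tested genes and 10.3% of all. The CCAAT box, CCAAT on either strand, was in 32.2% of the 59, against 34.3% and 34.6%. Windows of 1 gene can overlap, so these shares are descriptions.

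The 250 bases before the start are shown for the gene with the highest level of all 44 (PRMT1), the gene with the lowest (KDM6A) and a demethylase gene whose groups did not overlap (KDM1A), with each GC box in capitals. All lie on the plus strand: PRMT1 at chr19:49677021-49677270, KDM6A at chrX:44872938-44873187 and KDM1A at chr1:23019218-23019467.
PRMT1: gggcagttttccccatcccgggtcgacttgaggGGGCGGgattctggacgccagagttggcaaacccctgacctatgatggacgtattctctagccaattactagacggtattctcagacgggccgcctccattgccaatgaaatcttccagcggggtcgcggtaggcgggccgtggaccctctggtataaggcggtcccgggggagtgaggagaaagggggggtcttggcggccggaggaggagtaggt
KDM6A: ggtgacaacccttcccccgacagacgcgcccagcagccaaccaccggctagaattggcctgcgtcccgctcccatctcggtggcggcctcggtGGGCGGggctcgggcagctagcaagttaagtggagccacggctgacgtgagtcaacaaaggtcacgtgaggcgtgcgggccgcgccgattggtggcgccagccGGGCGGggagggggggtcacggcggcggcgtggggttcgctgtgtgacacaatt
KDM1A: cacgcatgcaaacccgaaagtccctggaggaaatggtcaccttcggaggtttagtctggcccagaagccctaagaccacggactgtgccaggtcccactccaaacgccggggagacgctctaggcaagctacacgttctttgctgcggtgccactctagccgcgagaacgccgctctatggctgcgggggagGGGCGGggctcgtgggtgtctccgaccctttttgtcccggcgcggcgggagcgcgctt
All 3 stretches are rich in G and C (61.2%, 69.2% and 64%) and hold 1, 2 and 1 GC boxes. Their CpG ratios are 0.757, 0.916 and 0.899, so the promoters of the gene with the highest level and of the gene with the lowest both count as CpG-rich by the limits above.

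Library totals ranged from 40558680 to 56067484 reads. NNMT itself had 0, 8 and 12 reads in control replicates 1, 2 and 3 and 2, 8 and 14 in the replicates labelled knockdown. It averaged 0.127 ± 0.112 and 0.183 ± 0.137 CPM (reads scaled to the size of the library; SD, n = 3 each), with a fitted log2 fold change of 0.48 (SE 0.929, adjusted p = 0.9995 by the quasi-likelihood test of edgeR). The exact two-sided permutation p was 0.6, where the smallest this design allows is 0.1. The 0 reads of control replicate 1 allow up to 0.0721 CPM, counting error only. A lowering of NNMT was thus not detectable, and the group is called "labelled knockdown" throughout. Of the listed markers of gastric epithelium, the tissue of the labelled line, 4 of 8 lay below 1 CPM in every library. So did 7 of 7 listed markers of intestinal epithelium. GKN1, CDX1 and CDX2 had 0 reads throughout. The summed level of the 8 gastric genes was 37 to 102 CPM in control and 42.5 to 103 CPM in the labelled libraries. MUC6 was the highest of these 8 in every library (25.7 to 84.1 CPM). MUC5AC measured 42.5 CPM in replicate 2 labelled knockdown and 3.67 to 8.97 CPM in the other libraries. The 7 intestinal genes summed to 0.361 to 0.871 and 0.444 to 0.793 CPM. The 5 general epithelial genes summed to 1297 to 1318 and 1262 to 1596 CPM (mostly KRT19), the 3 endothelial genes to 21.2 to 26.9 and 18 to 26.8 CPM (mostly PECAM1), and the 4 immune genes to at most 0.394 CPM (CD3E had 0 reads). The 7 mesenchymal genes summed to 1128 to 1218 and 1179 to 1317 CPM. Most of that sum was VIM, COL1A1 and COL3A1, while LUM, PDGFRB and THY1 lay below 1 CPM in every library and DCN at 0.0881 to 2.35 CPM. COL1A1 measured 241, 263 and 321 CPM in control and 254, 510 and 346 CPM in the labelled libraries, with overlapping groups. The part of these markers in the results was not tested.

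The first question was how much RNA of each enzyme the cells held. Levels between genes are given as TPM, that is, reads divided by the merged exon length of the gene and scaled to the same sum in every library. In these bulk libraries, fewer expressing cells and less RNA per cell cannot be told apart. The 44 genes spanned 36.7-fold, from 6.21 TPM for KDM6A to 228 TPM for PRMT1 over the 6 libraries, with a median of 32.3 TPM against 10.1 TPM over all tested genes. Of them, 36 lay between 10 and 60 TPM, 4 above (PRMT1, CARM1, PRMT2 and KDM2A) and 4 below (SUV39H2, KMT2C, SETDB2 and KDM6A). The writers had a median of 33.5 TPM and the erasers one of 27.1 TPM. Neighbours in the order within a class were often inseparable: of 34 neighbouring pairs, 19 had ranges over the 6 libraries that overlapped.

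**Figure D1:**
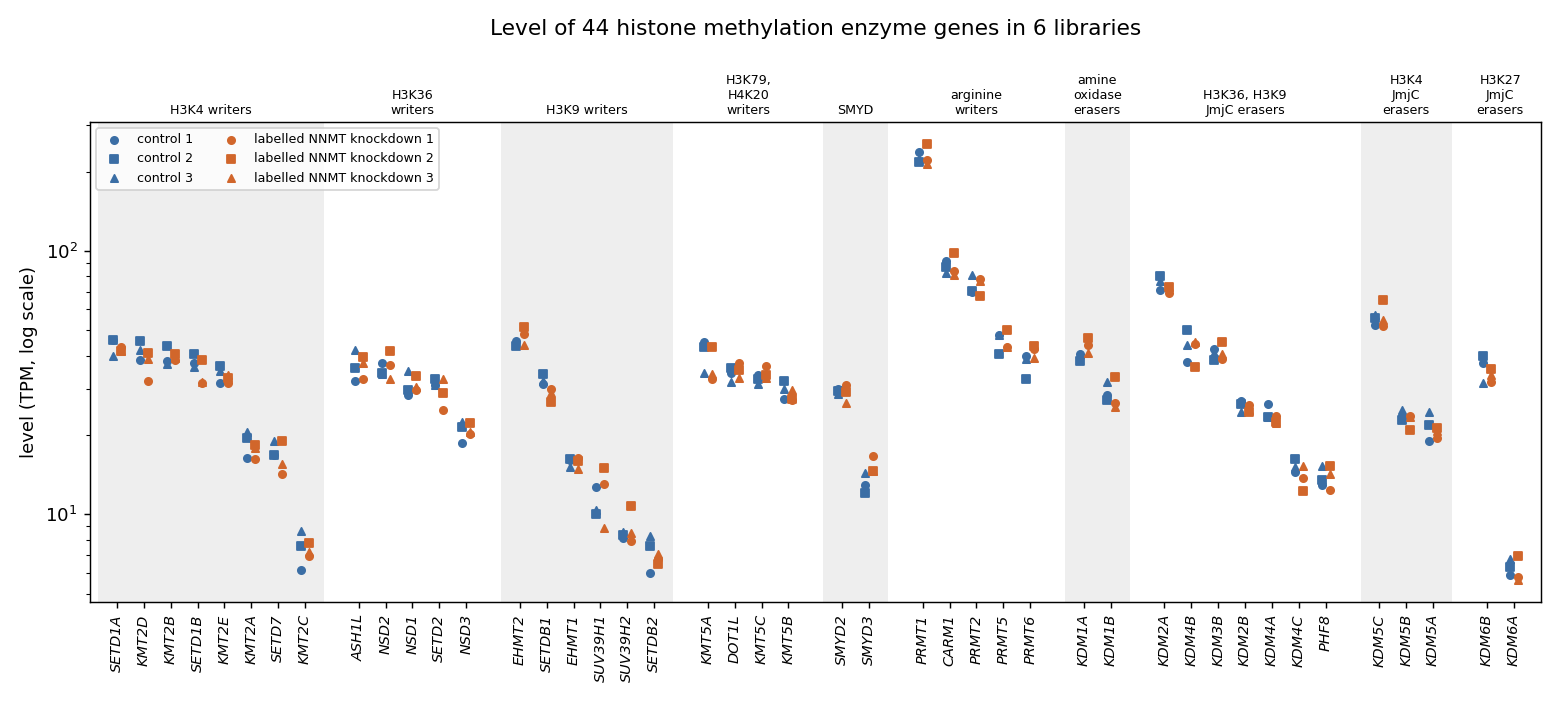
Level of each of the 44 genes in TPM (log axis) in the 3 control libraries (blue) and the 3 labelled NNMT knockdown (orange), grouped by enzyme class and ordered by mean within a class; symbols give the replicate number. PRMT1 lies between 213 and 256 TPM in every library, above all other genes, and KDM6A, SETDB2 and KMT2C lie at the lower end.

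The merged exon length strongly affects these levels. It exceeded the length of the principal coding transcript by a median of 1.69-fold over the 44 genes, and by 6.04-fold for KDM1A, 5.1-fold for KDM6A and 4.32-fold for EHMT1. With the length of the principal transcript from GENCODE 29, PRMT1 kept the first place, while KDM1A moved from place 10 to place 2 and SETD1A from place 8 to place 30. KDM6A moved from the last place to place 36, and SETDB2 became the last. Levels of KMT2C, KMT5A, PRMT1, PRMT5 and CARM1 are uncertain in another way, since pseudogenes of these genes are named in the annotation and reads aligned to several places were not counted. Reads overlapping exons of another gene were also dropped. Exons shared with another gene made up 48.8% of the merged exon length of KDM4A, 28.2% of PRMT5, 21.2% of SUV39H1, 20.2% of CARM1 and 19.3% of KMT2A, while 20 of the 44 genes shared none.

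The second question was whether any of these genes changed in the libraries labelled NNMT knockdown. SMYD3, a lysine methyltransferase of the SMYD family, and KDM1A, the flavin-dependent H3K4 demethylase LSD1, measured 1.18-fold and 1.11-fold of control, and SETDB1, an H3K9 writer, 0.891-fold. None of the 44 passed edgeR's quasi-likelihood test at an adjusted p under 0.05 (the smallest was 0.9995), where 0% of all tested genes did. At an unadjusted p under 0.05 there were again 0 of the 44, against 4.03% of all tested genes (2.05% lower and 1.98% higher), and DESeq2 called 0 of them, against 0.0412% of the genes it tested. The fitted log2 fold changes ran from -0.17 to 0.24 with SE from 0.0805 to 0.198; 23 lay below 0 and 21 above, where 49.2% of all tested genes lay below 0. The median was -0.0067, against 0.0033 over all tested genes. Within 0.1 of 0 lay 31 of the 44, against 43% of all tested genes and 57.2% of the 11204 tested genes within the same TPM range.

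The precision of these estimates is given by their intervals. For each of the 44 genes the 95% interval stayed within 2-fold of control, and for 43 within 1.5-fold, the exception being SUV39H1 (0.83 to 1.52). The spread over the 6 libraries was small, with a median coefficient of variation of 8.38% for the 44 genes, against 9.75% for tested genes in the same TPM range. EHMT1 varied least (3.85%), KDM2B next (4%), and SUV39H1, with 301 to 525 reads per library, varied most (19.8%).

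**Figure D2:**
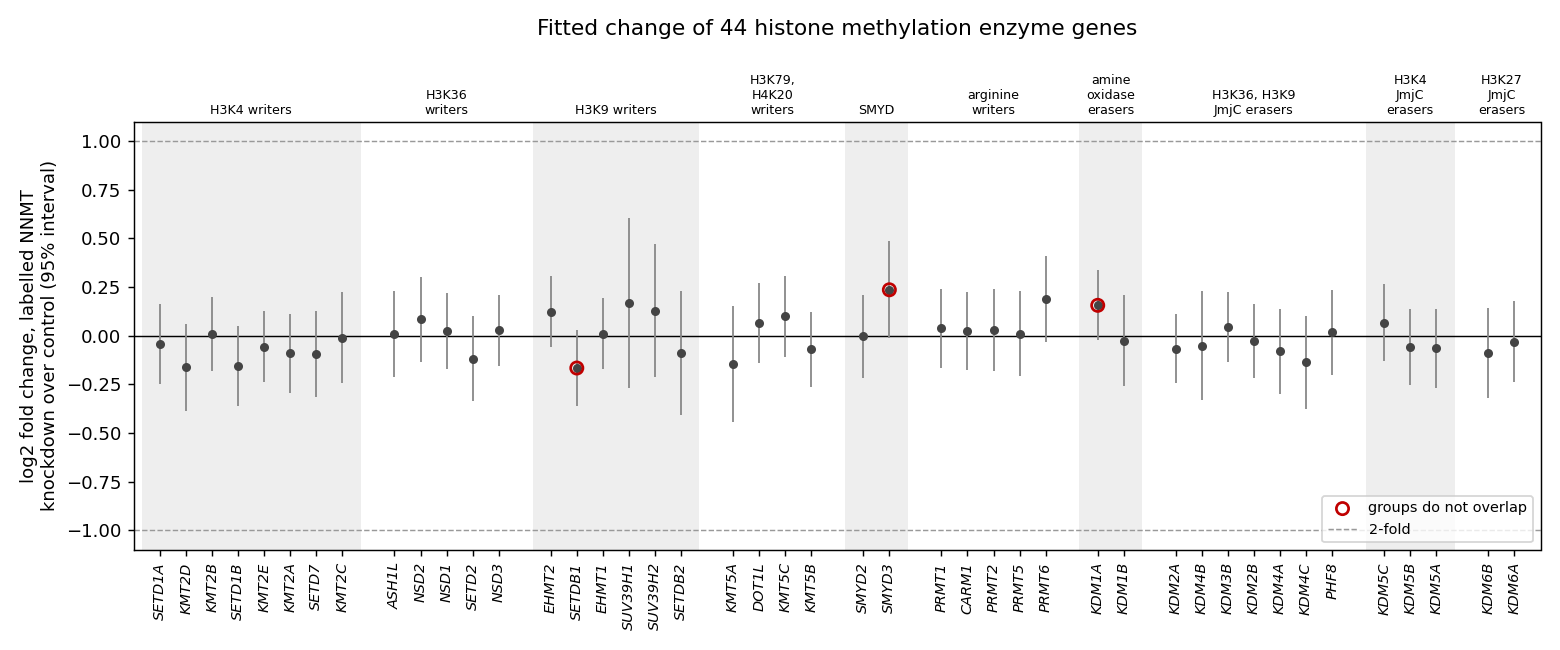
Fitted log2 fold change (labelled knockdown over control) of the 44 genes with 95% intervals from edgeR's quasi-likelihood fit, in the same order as the plot of levels; red rings mark genes whose groups do not overlap and dashed lines mark 2-fold. All points lie between -0.17 and 0.24 and every interval stays inside the dashed lines.

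The groups did not overlap for 3 of the 44 genes, SETDB1, SMYD3 and KDM1A. Among all tested genes 9.2% had such groups (4.88% lower and 4.32% higher), a larger share than 3 of 44. SETDB1 (chromosome 1, 150926263 to 150964744) encodes a writer of H3K9 trimethylation that silences transposable elements with TRIM28. It measured 55.2, 60.1 and 55.8 CPM in control replicates 1, 2 and 3 and 53.2, 47.1 and 51.7 CPM in the replicates labelled knockdown. The lowest control library lay just above the highest labelled one, and the log2 fold change was -0.17 (SE 0.0896, adjusted p = 0.9995). SMYD3 (chromosome 1, 245749342 to 246507312) encodes a lysine methyltransferase that acts on histones and on signalling kinases. It measured 18.2, 17 and 19.9 CPM in control and 23.5, 20.5 and 20.8 CPM in the labelled libraries. The gap between the groups was smaller than the SD of either, and the log2 fold change was 0.24 (SE 0.113, adjusted p = 0.9995). KDM1A (chromosome 1, 23019443 to 23083689) measured 178, 168 and 175 CPM in control and 194, 203 and 182 CPM in the labelled libraries, with a log2 fold change of 0.16 (SE 0.0815, adjusted p = 0.9995). With an offset for gene length in the fit, the groups of SETDB1 and KDM1A overlapped and those of SMYD3 did not. The adjusted p of all 44 genes stayed at 0.747 or above in each of 17 alternative fits.

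**Figure D3:**
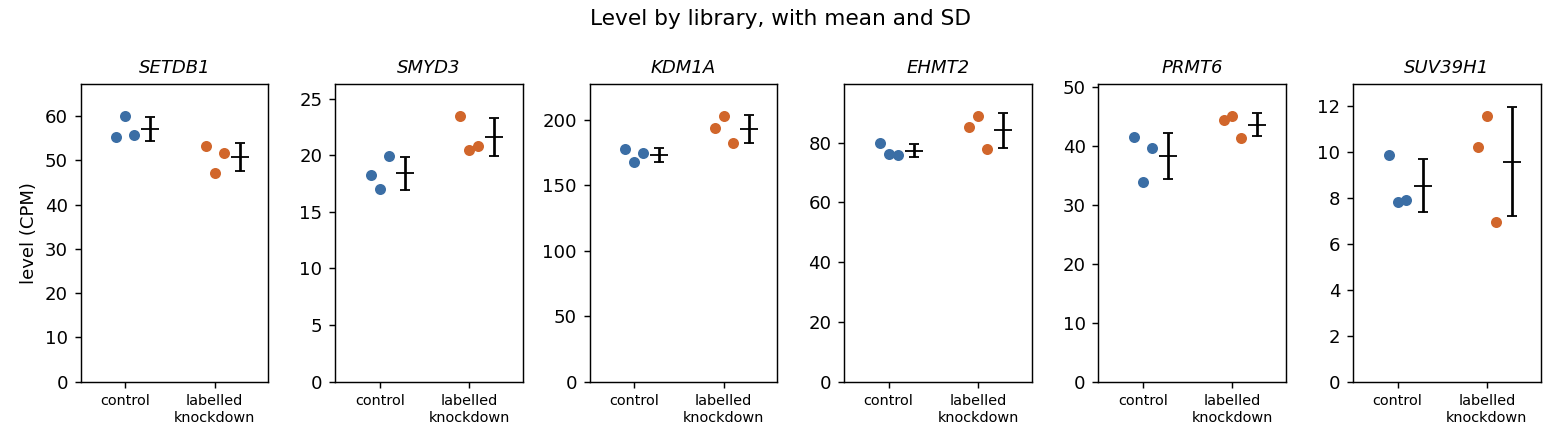
Level in CPM of SETDB1, SMYD3 and KDM1A, whose groups do not overlap, and of EHMT2, PRMT6 and SUV39H1, whose groups do, in each control (blue) and labelled knockdown (orange) library; black bars give the mean and SD of 3 libraries and each axis starts at 0. The difference between group means is small beside the level in all 6 genes, and the labelled libraries of SUV39H1 span both sides of the control.

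The H3K4 writers are the KMT2 and SETD1 enzymes, which work in COMPASS complexes, SETD7, which adds a single methyl group, and KMT2E, a family member that lacks methyltransferase activity. Of these 8 genes, 7 lay below 0 and 1 above; the median log2 fold change was -0.07, the range was -0.16 to 0.01, and 0 passed the test. The 5063 tested genes with the longest merged exons (from 7039 bases) include all of the 8 but SETD1A. Their median was -0.0178, and 55.6% of them lay below 0. For the 5066 with the shortest (to 2118 bases) the median was 0.0429, and 44.1% lay below 0. With the offset for length the median of the 8 was -0.06 and 6 lay below 0. Leaving out control replicate 1 moved it to -0.11 and leaving out control replicate 2 to -0.03, with 7 and 6 below 0. SETD1A (H3K4 trimethylation at promoters) had the highest TPM of the class, though KMT2E did with principal transcript lengths and the range of KMT2D overlapped it. It stood at 46.1, 46 and 39.9 TPM in control and 43.1, 41.8 and 41.8 TPM in the labelled libraries. KMT2C, an enhancer writer, had the lowest, at 6.13, 7.57 and 8.62 TPM in control and 6.92, 7.79 and 7.18 TPM in the labelled libraries. The labelled libraries of both genes lay inside the control range.

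SETD1B, the partner paralog of SETD1A, had the lowest p of the class. It measured 37.4, 40.5 and 36.2 TPM in control and 31.4, 38.4 and 31.7 TPM in the labelled libraries. Replicate 2 labelled knockdown lay among the controls and the other two below them, and the log2 fold change was -0.16 (SE 0.0932, adjusted p = 0.9995). KMT2D, the paralog of KMT2C, measured 42.1 ± 3.43 and 37.2 ± 4.58 TPM (SD, n = 3 each), with a log2 fold change of -0.16 (SE 0.101). KMT2B, KMT2E, KMT2A and SETD7 averaged 39.5, 33.5, 18.1 and 16.9 TPM over the 6 libraries. A gap with no overlap over the 6 libraries separated KMT2E from KMT2A, and SETD7 from KMT2C, while SETD1A, KMT2D, KMT2B, SETD1B and KMT2E each overlapped the next. KMT2D exceeded KMT2C by 4.63 to 6.31-fold in TPM, but by 1.92 to 2.62-fold with principal transcript lengths.

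The H3K36 writers comprise SETD2, which makes the trimethyl mark on transcribed genes, and NSD1, NSD2, NSD3 and ASH1L, which make the dimethyl mark. Of these 5 genes, 4 lay above 0 and 1 below; their median was 0.02 on the log2 scale, and 0 passed the test. Without control replicate 1 the tally turned to 1 above and 4 below (median -0.03), and the median was also below 0 without control replicate 2 (-0.00082) or replicate 2 labelled knockdown (-0.01). It was 0.06 without control replicate 3 and was 0.04 without replicate 1 labelled knockdown. ASH1L had the highest mean TPM, with a range that overlapped that of NSD2, and was in place 4 of 5 with principal transcript lengths. It measured 32.2, 36 and 41.9 TPM in control and 32.5, 39.4 and 37.5 TPM in the labelled libraries. NSD3 was lowest, at 18.7, 21.4 and 22.4 TPM in control and 20.2, 22.2 and 20.5 TPM in the labelled libraries. In both genes control replicate 1 was the lowest library and control replicate 3 the highest. SETD2 measured 30.8, 32.5 and 31.1 TPM in control and 24.9, 28.8 and 32.5 TPM in the labelled libraries, so that 2 of the 3 labelled libraries lay below all controls (log2 fold change -0.12, SE 0.0991). NSD2 averaged 36.1 TPM and NSD1 31.1 TPM over the 6 libraries, and their ranges overlapped; with principal transcript lengths NSD2 lay 1.49 to 2.03-fold above NSD1 in every library.

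The H3K9 writers are EHMT1 and EHMT2 (GLP and G9a), which make the dimethyl mark as a pair, SUV39H1 and SUV39H2, which make the trimethyl mark of heterochromatin, and SETDB1 and SETDB2. Among these 6 genes 4 lay above 0 and 2 below; their median was 0.07 on the log2 scale, and 0 passed the test. The median was 0.01 without replicate 2 labelled knockdown, 0.03 without replicate 1 and 0.11 without replicate 3 of that group; 3 of the 6 lay below 0 without control replicate 3 or replicate 1 labelled knockdown. The genes above 0 were EHMT1, EHMT2, SUV39H1 and SUV39H2, and those below were SETDB1 and SETDB2. EHMT2 was highest, at 45.7, 43.5 and 44 TPM in control and 48.5, 51.2 and 43.9 TPM in the labelled libraries. Labelled replicates 1 and 2 lay above all controls and replicate 3 among them (log2 fold change 0.12, SE 0.0829). SETDB2 was lowest, at 5.99, 7.58 and 8.3 TPM in control and 6.75, 6.5 and 7.04 TPM in the labelled libraries, all 3 of which were inside the control range. SUV39H1 measured 12.7, 10.1 and 10.4 TPM in control and 13.1, 15 and 8.83 TPM in the labelled libraries. Labelled replicate 2 was the highest of all 6 and labelled replicate 3 the lowest, so the group means of 11 ± 1.45 and 12.3 ± 3.16 TPM (SD, n = 3 each) differed by less than the spread. EHMT1 measured 15.8 ± 0.595 and 15.7 ± 0.751 TPM, and SUV39H2 8.35 ± 0.221 and 9.05 ± 1.5 TPM.

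Within the H3K9 pairs, EHMT2 exceeded EHMT1 by 2.84, 2.69 and 2.92-fold in control and by 2.97, 3.2 and 2.95-fold in the labelled libraries. This was the only 1 of 23 ratios of related genes whose groups did not overlap, and the group means were 2.82 ± 0.116 and 3.04 ± 0.14 (SD, n = 3 each). No test was run on these ratios, and 9.2% of all tested genes also had groups that did not overlap. With principal transcript lengths the excess was only 1.15 to 1.36-fold. SETDB1 exceeded SETDB2 by 3.86 to 5.2-fold and SUV39H1 exceeded SUV39H2 by 1.04 to 1.65-fold over the 6 libraries.

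**Figure D4:**
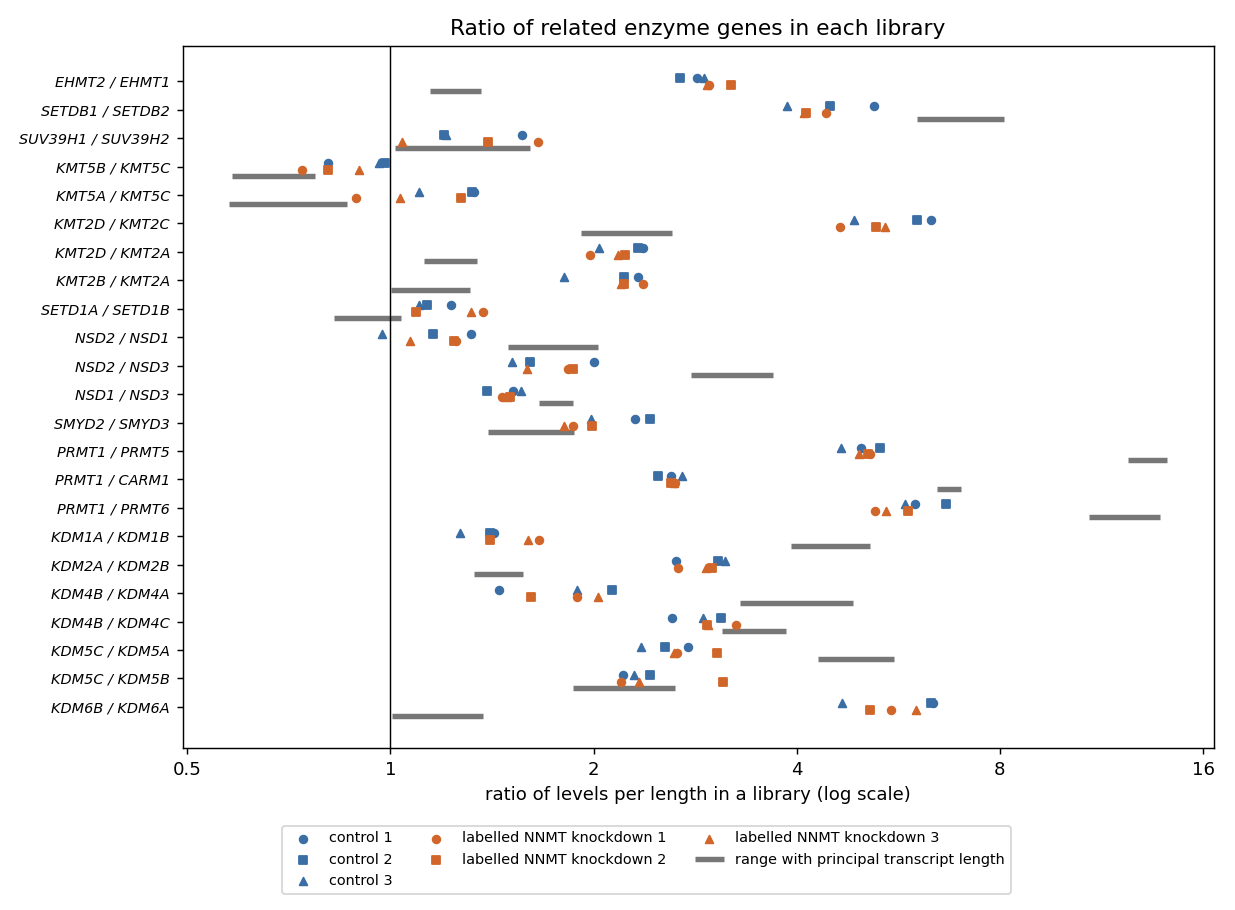
Ratio of the TPM levels of 23 pairs of related enzyme genes in each control (blue) and labelled knockdown (orange) library, on a log axis; grey bars give the range over the 6 libraries when principal transcript lengths replace merged exon lengths. Colours are mixed in all rows but EHMT2 over EHMT1, while the change of length moves KDM6B over KDM6A from 4.66 to 6.36 down to at most 1.37.

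DOT1L, the H3K79 writer without a SET domain, measured 34.3, 36 and 31.9 TPM in control and 37.7, 35.3 and 32.9 TPM in the labelled libraries. The H4K20 writers make the monomethyl mark (KMT5A) and the di- and trimethyl marks (KMT5B and KMT5C). KMT5A had the highest mean TPM of this class of 4 and its lowest p. It measured 45.1, 43.1 and 34.3 TPM in control and 32.6, 43.2 and 34 TPM in the labelled libraries. In each group a library at about 43 TPM or more stood beside one near 34 TPM, so the log2 fold change of -0.15 (SE 0.134) was within the spread. KMT5B was lowest, at 27.4, 31.9 and 29.9 TPM in control and 27, 27.4 and 29.6 TPM in the labelled libraries. KMT5C measured 32.5 ± 1.35 and 34.5 ± 1.91 TPM (SD, n = 3 each). Of the 4 genes 2 lay above 0 and 2 below, with 0 passing, and their median of -0.0024 moved to between -0.04 and 0.05 when single libraries were left out. No neighbours in their order were separated over the 6 libraries. With principal transcript lengths KMT5C moved above KMT5A in every library (KMT5A over KMT5C 0.578 to 0.864, against 0.891 to 1.33 in TPM).

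SMYD2, which methylates histones and p53, was higher than SMYD3 in every library. It measured 29.8, 29.3 and 28.6 TPM in control and 30.9, 29.2 and 26.4 TPM in the labelled libraries, with a log2 fold change of -0.0035 (SE 0.096). SMYD3 measured 13, 12.1 and 14.4 TPM in control and 16.6, 14.6 and 14.6 TPM in the labelled libraries. The ratio of SMYD2 to SMYD3 was 2.3, 2.42 and 1.99 in control and 1.86, 1.99 and 1.81 in the labelled libraries, and replicate 2 labelled knockdown lay just above control replicate 3. The ratio ran from 1.4 to 1.87 with principal transcript lengths.

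The arginine methyltransferases include PRMT1, the main source of asymmetric dimethylarginine, CARM1 and PRMT6, of the same type with other target sites, PRMT5, which makes the symmetric form, and PRMT2. Their median level of 74 TPM was the highest of the 10 classes, while with principal transcript lengths the amine oxidase erasers were higher (medians of 36.9 and 27.8 RPKM, reads scaled to library size and to that transcript length). PRMT1 measured 238, 217 and 224 TPM in control and 221, 256 and 213 TPM in the labelled libraries, which placed it above 97.2% of all tested genes. Its labelled libraries lay on both sides of the controls, and the log2 fold change was 0.04 (SE 0.0916). PRMT1 exceeded CARM1 by 2.49 to 2.7-fold, PRMT5 by 4.66 to 5.31-fold and PRMT6 by 5.21 to 6.65-fold over the 6 libraries. With principal transcript lengths these ratios were 6.46 to 7.02, 12.4 to 14.1 and 10.8 to 13.8.

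PRMT6 had the lowest TPM of the 5, with a range that overlapped that of PRMT5, which was lowest with principal transcript lengths. It measured 39.8, 32.6 and 38.7 TPM in control and 42.4, 43.6 and 39.3 TPM in the labelled libraries. Control replicate 1 lay within the labelled range, and the log2 fold change was 0.19 (SE 0.0996, adjusted p = 0.9995). CARM1 measured 87 ± 4.34 and 87.6 ± 9.21 TPM, PRMT2 73.7 ± 6.22 and 74.2 ± 5.79 TPM, and PRMT5 45.5 ± 4.14 and 45.4 ± 4.09 TPM (SD, n = 3 each). All 5 genes lay above 0 under each scaling; the median was 0.03 on the log2 scale, and 0 passed. Leaving out replicate 2 labelled knockdown moved the median to -0.03 and put 3 of the 5 below 0. Leaving out control replicate 1 or replicate 3 labelled knockdown moved it to 0.07, leaving out control replicate 2 to 0.01, and with the offset for length PRMT5 lay below 0. The merged exons of 4 of the 5 are shorter than 7039 bases.

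Of the amine oxidase erasers, KDM1A removes methyl groups from H3K4 in complexes with RCOR1 and the histone deacetylases HDAC1 and HDAC2, and KDM1B does so in gene bodies. In TPM, KDM1A measured 40.5, 38.1 and 40.5 in control and 43.8, 46.5 and 40.9 in the labelled libraries. KDM1B measured 28.4, 27.1 and 31.9 TPM in control and 26.4, 33.1 and 25.6 TPM in the labelled libraries, the latter on both sides of the control range (log2 fold change -0.03, SE 0.106). KDM1A exceeded KDM1B in each library, by 1.27 to 1.66-fold, and by 3.93 to 5.14-fold with principal transcript lengths.

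The JmjC erasers of H3K36 and H3K9 are KDM2A and KDM2B (H3K36), KDM3B (H3K9), KDM4A, KDM4B and KDM4C (H3K9 and H3K36) and PHF8 (H3K9 and H4K20). Among these 7 genes 5 lay below 0 and 2 above; their median was -0.05 on the log2 scale, and 0 passed. The median was -0.01 without control replicate 2, -0.02 without control replicate 1, -0.08 without control replicate 3 and -0.03 without replicate 2 labelled knockdown, with 4 to 6 of the 7 below 0 over all libraries left out. KDM2A had the highest TPM (KDM4B with principal transcript lengths), at 71.2, 80.3 and 76.7 TPM in control and 69.4, 73.2 and 72.9 TPM in the labelled libraries. PHF8 was lowest, at 12.9, 13.5 and 15.3 TPM in control and 12.3, 15.2 and 14.2 TPM in the labelled libraries. KDM4C had the lowest p, with 14.5, 16.2 and 15.2 TPM in control and 13.7, 12.3 and 15.3 TPM in the labelled libraries. In all 3 genes the ranges of the groups overlapped, and the log2 fold change of KDM4C was -0.14 (SE 0.108). KDM4B was the most variable of the class (coefficient of variation 11.8%), at 38, 50.1 and 44 TPM in control and 44.4, 36.3 and 45.2 TPM in the labelled libraries. KDM3B, KDM2B and KDM4A averaged 41.1, 25.5 and 23.5 TPM.

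The H3K4 JmjC erasers are the KDM5 enzymes, which remove the trimethyl mark. KDM5C, an X-linked gene, measured 52.5, 55.4 and 57.2 TPM in control and 51.8, 65 and 54.6 TPM in the labelled libraries, and labelled replicate 2 stood above the rest (log2 fold change 0.07, SE 0.0891). KDM5A was lowest, at 19, 21.7 and 24.3 TPM in control and 19.5, 21.3 and 20.7 TPM in the labelled libraries, all within the control range. KDM5B measured 23.8 ± 1.06 and 22.6 ± 1.48 TPM (SD, n = 3 each) and its range overlapped that of KDM5A. KDM5C exceeded KDM5A by 2.35 to 3.04-fold in TPM and by 4.3 to 5.57-fold with principal transcript lengths. Of the 3 genes 2 lay below 0 and 1 above (median -0.06), and without control replicate 3 the tally was 1 below and 2 above (median 0.006).

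The H3K27 JmjC erasers, which remove the mark that Polycomb sets, are KDM6A (UTX) and KDM6B (JMJD3). KDM6B measured 37.4, 39.8 and 31.4 TPM in control and 31.8, 35.5 and 33.9 TPM in the labelled libraries (log2 fold change -0.09, SE 0.105). KDM6A measured 5.88, 6.29 and 6.74 TPM in control and 5.76, 6.93 and 5.64 TPM in the labelled libraries (log2 fold change -0.03, SE 0.0945). For KDM6A the labelled libraries lay on both sides of the control range. KDM6B exceeded KDM6A by 4.66 to 6.36-fold in TPM and by at most 1.37-fold with principal transcript lengths, so most of the TPM gap goes with the long merged exons of KDM6A (27742 bases).

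Summed over all 44 genes, the level was 1608, 1622 and 1623 TPM in control and 1561, 1688 and 1555 TPM in the labelled libraries. The writers summed to 1165 ± 3.21 and 1158 ± 62.3 TPM and the erasers to 452 ± 11.1 and 443 ± 13.9 TPM (SD, n = 3 each). The labelled libraries lay on both sides of the controls for the writers and for the sum over all 44. Among the libraries, replicate 2 labelled knockdown was the highest of the 6 for 15 of the 44 genes and replicate 3 labelled knockdown for 1, while control replicate 3 was the lowest for 11. The same shares over all tested genes were not computed, so these counts do not set the 44 apart from other genes. The median deviation of the 44 genes from their mean over the 6 libraries stayed between -0.0233 and 0.0193 on the log2 scale. In replicate 3 labelled knockdown 13 of the 44 genes lay above that mean, against 51.4% of all tested genes, and in the other libraries 18 to 24 did.

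Partner proteins and other enzymes of the same families, listed by function, gave 0 called genes in each of 7 lists, at an adjusted p of 0.9995 or above. The 12 COMPASS partners, such as WDR5 and ASH2L, had 6 above 0 and 6 below (median -0.0024). WDR82, which recruits the SETD1 enzymes to promoters, had the lowest p and the highest TPM of them. It measured 210, 222 and 180 CPM in control and 147, 171 and 189 CPM in the labelled libraries (log2 fold change -0.27, SE 0.112, adjusted p = 0.9995 by edgeR's quasi-likelihood test). The 12 H3K9 partners had 6 above and 6 below (median -0.00097). TRIM28, the corepressor that brings in SETDB1, was the highest of these, at 378 ± 38 and 382 ± 28.1 CPM, and PPHLN1, of the HUSH silencing complex, had the lowest p, at 71 ± 2.68 and 65.5 ± 4.17 CPM (SD, n = 3 each). The 10 amine oxidase partners had 4 above and 6 below (median -0.02). Among them HDAC1 measured 248 ± 10.4 and 244 ± 18.2 CPM, and ZMYM2 174 ± 1.94 and 157 ± 8.59 CPM. The 6 arginine methyltransferase partners had 2 above and 4 below (median -0.05), and BTG1, which binds PRMT1, measured 86.1 ± 7.43 and 75.8 ± 4.06 CPM.

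Of 15 other SET and PRMT genes 14 were tested, with 7 above 0 and 7 below (median -0.0084). SETD5, which encodes a SET domain protein, had the lowest p, at 281, 345 and 294 CPM in control and 229, 248 and 291 CPM in the labelled libraries (log2 fold change -0.26, SE 0.112, adjusted p = 0.9995). Labelled replicate 3 lay within the control range. SMYD5 had the highest TPM of that list, and its level was 48.5 ± 3.6 and 47.7 ± 5.17 CPM. Of 10 other JmjC genes 9 were tested, with 4 above and 5 below (median -0.03), and JMJD1C had both the lowest p and the highest level, at 752 ± 66.2 and 665 ± 36.3 CPM. Of the 5 genes that supply S-adenosylmethionine or clear its products, 3 lay above 0 and 2 below (median 0.05). MAT2A, the synthetase, measured 830 ± 10.7 and 871 ± 71.8 CPM, and MTAP, which salvages methylthioadenosine, measured 61.4, 55.6 and 52.9 CPM in control and 46.1, 52.4 and 49.3 CPM in the labelled libraries. The log2 fold change of MTAP was -0.2 (SE 0.0915, adjusted p = 0.9995). Over the 7 lists the groups did not overlap for MEN1, a COMPASS partner that was higher (58.7 ± 0.761 and 66.9 ± 5.63 CPM), and for PPHLN1, ZNF644, ZMYM2, BTG1, PRDM4 and MTAP, which were lower, where 9.2% of all tested genes had such groups.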

How the data were processed

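The authors deposited raw read counts per gene, made with featureCounts 2.0.6 on hg38 with GENCODE 44, per the file headers. The submitters' processing notes list GRCh38 too. For the aligner, a name was not given in the sources used here. Mates were not set to be counted as 1 fragment: 73.4% to 76.7% of counts from 2 to 10 were even, so counting limits are too narrow. Strand was not used in counting (the labels name 2 library kits, 1 of them stranded) and multi-mapping reads were left out, per the file headers, so overlapping and near-identical genes are uncertain. No column was left unused (0), and all 62700 identifiers matched a symbol.

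Genes were filtered with filterByExpr, scaled with TMM and tested with edgeR 4.0.16 (quasi-likelihood, robust, group only, R 4.3.3) with Benjamini-Hochberg adjustment over all tested genes at 0.05. TPM and CPM were computed here. The merged exon length that the authors deposited served for TPM, and GENCODE 29 principal transcripts as an alternative length added after the data were seen. The alternatives were DESeq2 1.42.0, limma-voom (limma 3.58.1), other scalings and filters, halved counts, a length offset, the replicate block and leaving out each library. The test was also run on simulated data, where most changes of the smallest size set were not called. Pairs of libraries differed beyond sampling noise (chi-square per gene 12 to 44). Genes described in full are, per class, those with the highest and lowest level and the lowest p, plus those whose groups did not overlap. The genes, classes and lists were chosen with earlier results of these data known.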

Additional observations from a re-analysis of the deposited data

How the results depend on the processing

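None of the 44 genes was called in any of the 17 alternative fits, and their smallest adjusted p over these was 0.747. Over all genes, edgeR called 72 without a filter on low counts, DESeq2 called 8 and edgeR without control replicate 3 called 1 (range 0 to 1 when a library was left out), against 0 in the fit with all libraries; the cause was not tested. The median log2 fold change of the 44 genes ran from -0.03 to -0.0011 over the alternatives. The number with groups that did not overlap was 3 under each scaling and filter, 1 with the offset for gene length and 4 to 12 when a library was left out, where 14.8% to 22.4% of all tested genes did so because fewer libraries have to be apart. The sign of the log2 fold change held in all 17 fits for 23 genes (14 below 0, 9 above), and turned for 18 only when a library was left out. In the others it turned for KMT2C with the replicate block (0.00014) and the length offset (0.00546), and with the latter also for SMYD2 (0.000368) and PRMT5 (-0.00257). The ranges when each library was left out in turn were KMT2B -0.0519 to 0.0841, KMT2C -0.12 to 0.0881, SETD1A -0.125 to 0.00548, NSD1 -0.025 to 0.0953, NSD3 -0.0335 to 0.0623, ASH1L -0.0661 to 0.0922, EHMT1 -0.0385 to 0.0439, DOT1L -0.00316 to 0.112, SMYD2 -0.0746 to 0.0504, PRMT1 -0.027 to 0.0898, PRMT2 -0.0282 to 0.108, PRMT5 -0.0599 to 0.0616, CARM1 -0.0486 to 0.0721, KDM1B -0.133 to 0.0374, KDM2B -0.0839 to 0.0128, KDM4B -0.137 to 0.0575, PHF8 -0.0338 to 0.0799, KDM5A -0.139 to 0.006, KDM5B -0.106 to 0.0101, KDM5C -0.0165 to 0.117, KDM6A -0.111 to 0.0184 and NNMT -0.188 to 1.06. NNMT turned without control replicate 1 (-0.0428) and without replicate 3 labelled knockdown (-0.188). The ratio of summed writer to summed eraser levels was 2.6 in TPM and in RPKM and 2.45 with principal transcript lengths, chosen after seeing the data. Same-numbered control and labelled libraries deviated together with r of 0.0545, -0.0705 and 0.18 over genes, the last being the highest of all such pairs. Control replicate 1 went more with labelled replicate 2 (0.13) than with its own number. Deviations were taken from the mean of each group and are not independent, so these values cannot decide whether the numbers pair the samples. The replicate block called 0 genes, with 0 of the 44 among them, and gave a median of -0.0031 for the 44. In that edgeR quasi-likelihood fit the smallest adjusted p was 0.263 over all tested genes and 0.996 over the 44. Depth limits SUV39H1, SUV39H2 and SETDB2 most, with 276 to 729 reads per library.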
